A study of Mus musculus with 2 samples.

Results

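Arterial endothelial cells, the cells that line the arteries and arterioles, made up 4302 of the 19691 endothelial cells in the CD133+ non-traced library from mouse spinal cord (21.8%, 95% interval 21.3 to 22.4) and 16.9% of its 25411 cells. They were chosen by their own transcript counts, as endothelial cells with a unique molecular identifier (UMI, a tag that marks a single captured RNA molecule) of 3 or more of 6 arterial genes, Bmx, Gkn3, Vegfc, Sema3g, Fbln2 and Egfl8. A cell counted as endothelial with a UMI of 5 or more of 8 genes (Cldn5, Flt1, Pecam1, Ly6c1, Slco1a4, Itm2a, Cdh5 and Ly6a), of at most 1 of 6 ependymal genes (Ccdc153, Fam183b, Tmem212, Foxj1, Rsph1 and Dynlrb2) and of at most 1 of 5 mural genes (Pdgfrb, Kcnj8, Vtn, Higd1b and Abcc9). The study asked which cells of the spinal cord are marked by past expression of DNGR-1, a receptor of dendritic cells encoded by Clec9a, and measured single-cell transcriptomes of 30236 cells in 2 libraries. All cells came from adult C57BL/6j mice of 10 to 12 weeks that carried Cre at both Clec9a alleles and a loxP-stop-loxP tdTomato reporter at both R26 alleles, which stays on in a cell and its progeny once Clec9a-driven Cre has acted. Live CD45- CD133+ cells without tdTomato formed the CD133+ non-traced library and those with tdTomato the CD133+ DNGR-1 traced library of 4825 cells. Each group was 1 library and the number of mice behind it was not stated, so every value below describes these libraries, without a replicate check and without a test between groups of cells.

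In vertebrate vessels, endothelial cells differ along the path of the blood. Arterial cells face high pressure and shear, rest on an elastic lamina and smooth muscle, and are known for Notch signalling, ephrin-B2, SOX17 and gap junctions made of connexins 37 and 40. Capillary cells of the brain and spinal cord carry most of the transporters of the blood-brain barrier, whereas venous cells depend on the nuclear receptor COUP-TFII, encoded by Nr2f2, and display the adhesion molecules that leukocytes bind. The levels change gradually from artery to capillary to vein, so a count of arterial genes places a cell on a scale rather than in a closed class.

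Arterial cells held 45196648 UMIs in all, with a median of 8738.5 per cell (range 1288 to 46427) and 3217.5 genes. The 15389 other endothelial cells had a median of 6425 UMIs and 2587 genes. The arterial share was 12.0% among endothelial cells of fewer than 5000 UMIs, 18.6% from 5000 to 10000 UMIs and 34.9% at 10000 UMIs or more, so the rule picked deeper cells more often. Mitochondrial genes gave a median of 2.89% of UMIs in arterial and 3.54% in other endothelial cells. Droplets with more than 1 cell were kept. The doublet caller Scrublet marked 441 arterial cells (10.3%, interval 9.36 to 11.2) against 3.08% of the other endothelial cells. Of the 4825 traced barcodes 42 also occurred in the non-traced library, and 6 of these were barcodes of non-traced arterial cells.

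Counts were summed over the cells of a group and scaled to CPM, the count a gene would have at a fixed total per group, and intervals are exact 95% Poisson intervals for levels and Clopper-Pearson intervals for shares, which cover counting error only. The endothelial rule genes chose the cells too, and only their levels are described. Cldn5, the claudin of the barrier's tight junctions, was at 7313 CPM in arterial and 7849 in other endothelial cells, Flt1, a VEGF receptor, at 4299.5 against 3759, and Cdh5, the cadherin of endothelial junctions, at 680.1 against 573 CPM. Of the 8 endothelial rule genes 0 differed by 2-fold or more, with Itm2a at 3526 against 5544 CPM and Ly6c1 at 6066 against 4384. Prom1, which encodes the CD133 used in the sort, was at 360.2 CPM in arterial and 322 in other endothelial cells.

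The number of arterial rule genes per cell formed a long, flat tail. Of the 19691 endothelial cells 9451 had a UMI of none, 4269 of 1 and 1669 of 2 of the genes, and these were not members. Among the members 1105 had 3, 1055 had 4, 1107 had 5 and 1035 had all 6. Median depth was 7616 UMIs in the cells with 2 genes, just outside the rule, 7987 in those with 3, just inside it, and 12082 in those with all 6. Across that boundary Mgp was at 29.6 CPM in the cells with 2 and 109 in those with 3, and the barrier amino acid transporter Slc38a5 at 184 and 113. The step was thus larger for Mgp, upward, than for Slc38a5, downward. Gkn3 was at 50.4 and 173 CPM, but it is 1 of the 6 counted genes, so the classes themselves favour this rise.

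**Figure D1:**
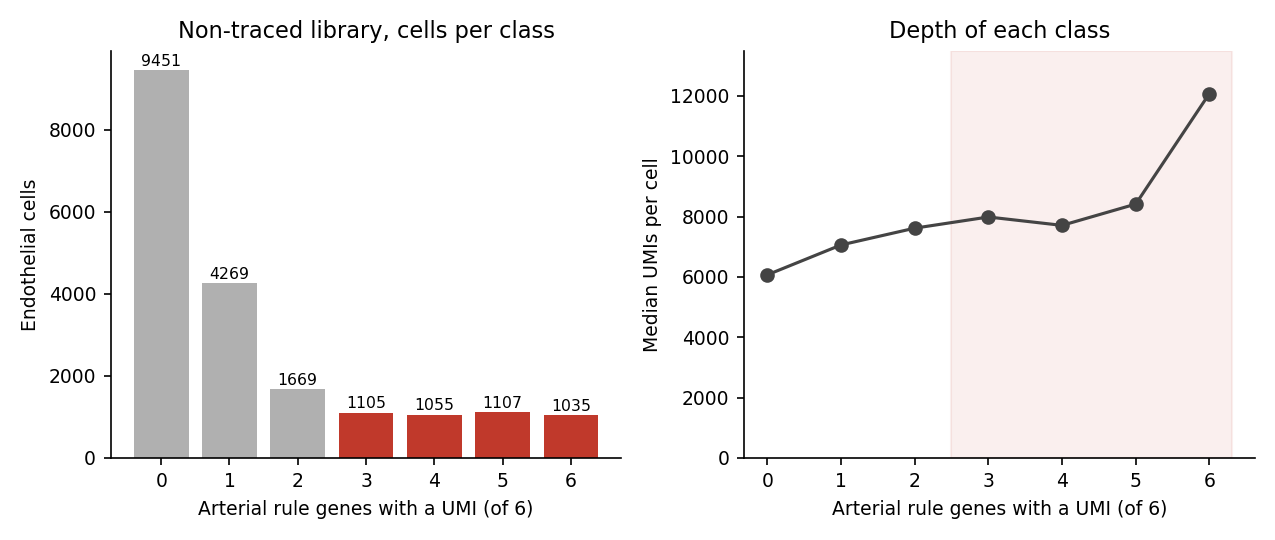
Left, endothelial cells of the non-traced library by the number of the 6 arterial rule genes with a UMI, with members in red. Right, the median UMIs per cell of each class, with members on the shaded ground; the 1035 cells with all 6 genes were the deepest, at 12082 UMIs.

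The 6 rule genes chose the cells, so their levels are a description. Gkn3, a gastrokine used as a marker of arterial endothelium in the central nervous system, was at 761 CPM (interval 753 to 769) in arterial cells against 10.8 (10.2 to 11.4) in other endothelial cells. Bmx, a tyrosine kinase of the Tec family, was at 228 against 11.1 CPM, and Vegfc, the ligand of the receptor encoded by Flt4, at 228 against 8.51. Sema3g, a secreted semaphorin, was at 254 against 39.0 CPM, with 15.3 in venous and 46.4 in capillary marker cells. Fbln2, a matrix glycoprotein, was at 136 against 5.05 CPM and Egfl8, a small protein with EGF-like domains, at 261 against 16.2. No rule gene was found in every arterial cell: Sema3g had a UMI in 86.6%, Bmx in 80.5%, Vegfc in 77.0%, Gkn3 in 75.0%, Egfl8 in 72.5% and Fbln2 in 56.6%.

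How far the 6 genes marked the same cells can be seen by leaving each out in turn. Among endothelial cells with 3 or more of the other 5 genes, Bmx had a UMI in 76.9% of cells, against 4.05% of cells with none of the other 5. The same pair of shares was 71.8% and 4.07% for Gkn3, 73.8% and 3.76% for Vegfc, 83.4% and 16.7% for Sema3g, 53.2% and 1.94% for Fbln2 and 68.9% and 9.73% for Egfl8. Because deep cells show more genes, the shares were also taken with every cell thinned at random to 1000 UMIs. They then became 21.6% and 0.650% for Bmx, 37.9% and 0.700% for Gkn3, 20.5% and 0.509% for Vegfc, 23.6% and 3.13% for Sema3g, 12.4% and 0.384% for Fbln2 and 22.8% and 1.45% for Egfl8. In 298 ependymal marker cells (4 or more of the 6 ependymal and at most 1 of the endothelial rule genes), which should lack these genes and had a median of 6332 UMIs, the thinned shares lay between 0% (0 of 298, with an upper limit of 1.23%, for Sema3g and Fbln2) and 1.01% (Bmx and Gkn3). For every rule gene but Sema3g, the thinned share in endothelial cells with none of the other 5 lay within the interval of this background. These intervals rested on few cells and were wide, from 0.208% to 2.91% for Bmx (3 of 298). They cannot show that the genes were at background in those endothelial cells.

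The rule genes lie on 5 chromosomes in the GRCm38 annotation: Bmx on X (164192842 to 164258193), Gkn3 and Fbln2 on 6 (87383256 to 87388935 and 91212455 to 91272540), Vegfc on 8 (54077606 to 54187096), Egfl8 on 17 (34613349 to 34615971) and Sema3g on 14 (31217860 to 31230352). Promoter windows, from 250 bases before to 50 bases after a start site, were read from RefSeq on GRCm38.p6 and searched on both strands for GTGGGAA, a form of the site bound by RBPJ, the DNA-binding partner of Notch, and for TATAAA, the core of the TATA box. GTGGGAA stood in 2097 of 32851 promoter windows (6.38%), or in a window of 7.25% of 27025 genes. It was in 0 of the 6 rule genes, in 0 of the 20 arterial list genes with a window (of 28 on the list) and in 3 of 15 Notch pathway genes, Hes5, Hey2 and Lfng. TATAAA stood in 13.6% of all windows, or in a window of 15.7% of genes. It was in 4 of the 20 arterial list genes (Efnb2, Cxcr4, Alpl and Tgfb2), in 0 of the 6 rule genes and in 0 of the 15 Notch pathway genes. Shown here are the windows of Gkn3, the rule gene with the largest difference, of Fbln5, the gene with the largest difference outside the rule, and of Hey2, a Notch target with the motif (in capitals) at positions -4 and -207 from its start. A match is only a run of letters, and its absence says nothing of Notch at these genes. All are on the minus strand and printed 5′ to 3′, Gkn3 at chr6:87388886-87389185, Fbln5 (1 of its 2 windows, neither with a motif) at chr12:101819070-101819369 and Hey2 at chr10:30842734-30843033.
Gkn3: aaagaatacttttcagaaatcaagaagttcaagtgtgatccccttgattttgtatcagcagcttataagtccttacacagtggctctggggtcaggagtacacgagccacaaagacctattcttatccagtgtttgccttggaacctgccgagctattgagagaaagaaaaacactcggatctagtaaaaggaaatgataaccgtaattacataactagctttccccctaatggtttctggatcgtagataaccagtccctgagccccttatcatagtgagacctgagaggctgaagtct
Fbln5: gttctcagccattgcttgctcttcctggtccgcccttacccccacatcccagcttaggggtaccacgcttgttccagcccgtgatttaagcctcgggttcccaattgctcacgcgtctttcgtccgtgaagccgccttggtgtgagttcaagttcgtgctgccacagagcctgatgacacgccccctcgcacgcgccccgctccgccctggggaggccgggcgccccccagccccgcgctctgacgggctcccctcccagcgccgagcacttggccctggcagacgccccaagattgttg
Hey2: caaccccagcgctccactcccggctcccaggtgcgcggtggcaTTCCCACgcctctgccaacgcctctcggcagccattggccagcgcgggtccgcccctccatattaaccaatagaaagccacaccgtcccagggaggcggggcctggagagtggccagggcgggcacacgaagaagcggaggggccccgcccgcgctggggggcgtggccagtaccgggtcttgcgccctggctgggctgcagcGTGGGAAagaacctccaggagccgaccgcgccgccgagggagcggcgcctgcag

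Set against the other endothelial cells, arterial cells had higher levels of the matrix genes Fbln5, Mgp, Eln and Col18a1 and of the connexin gene Gja4, and lower levels of Car4, Tmsb10 and Slc38a5. With the rule genes left out, 3634 genes reached 50 CPM in either group. Of these, 77 (2.12%) were at least 2-fold higher and 38 (1.05%) at least 2-fold lower in arterial cells on the log2(CPM + 1) scale, and the median over all 3634 was 0.03. Since these genes were measured in the cells that the rule picked, the differences describe the members and carry no test.

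Fbln5, the fibulin needed to assemble elastic fibres, stood furthest apart, at 78.3 CPM (75.7 to 80.9) in arterial cells and 0.483 (0.368 to 0.623) in other endothelial cells, a log2 difference of 5.74 (3.07 with 10 CPM added in place of 1 before the log). It had a UMI in 16.3% of arterial cells, so its level rested on a minority of them. Mgp, matrix Gla protein, an inhibitor of vascular calcification, was at 717 against 23.1 CPM (4.90) and was found in 50.3% of arterial cells. Eln, elastin itself, was at 58.2 against 6.42 CPM, and Col18a1, the basement membrane collagen from which endostatin is cut, at 67.5 against 2.97 (4.11). Npnt, a matrix ligand of integrins, was at 51.4 against 4.80 CPM (3.17) and Timp2, an inhibitor of matrix metalloproteinases, at 57.5 against 8.13 (2.68).

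Igfbp3, which binds insulin-like growth factors, was at 131 against 7.63 CPM (3.94), and the secreted chaperone gene Clu at 154 against 10.3 (3.78). Gja4, connexin 37, was at 73.8 against 5.17 CPM, Gper1, a G protein-coupled oestrogen receptor, at 57.6 against 3.49 (3.71), and Cdh13, T-cadherin, at 65.0 against 7.33 (2.99). Tmem100, a membrane protein induced by BMP signalling through ALK1, was at 161 against 14.1 CPM (3.43). The calcium pump gene Atp2a3 was at 53.9 against 5.05 CPM (3.18), and S100a6, a calcium-binding protein, at 119 against 14.5 (2.95) with a UMI in 20.0% of arterial cells. Stmn2, a regulator of microtubules better known from neurons, was at 566 against 75.9 CPM (2.88) and was found in 86.0% of arterial and 20.2% of other endothelial cells.

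The sizes of the lower levels depended on a cluster of 1291 arterial cells that was led by Slc38a5, Car4 and Tmsb10 and is described with the clusters. Car4, carbonic anhydrase 4 of the capillary surface, was at 358 CPM (352 to 363) against 1279.5 (1273 to 1286), a log2 difference of -1.84. Tmsb10, which binds actin monomers, was at 587 against 2087 CPM (-1.83), Slc38a5, a transporter of glutamine and other neutral amino acids, at 81.1 against 282 (-1.79), and Ctla2a, an inhibitor of cysteine proteases, at 512 against 1414 (-1.46). Cpe, carboxypeptidase E, was at 30.0 against 102 CPM (-1.74) and Hmcn1, the matrix protein hemicentin 1, at 185 against 477 (-1.36). Nr2f2 was at 15.8 against 51.8 CPM (-1.65) and Nrp2, neuropilin 2, at 23.2 against 70.5 (-1.57). Ndnf, a secreted neurotrophic factor, was at 109 against 328 CPM (-1.58), and Ttyh2, Flrt2, Rnase4, Fmo2 and Apod were also among the 15, with differences from -1.65 to -1.33. None of the genes named here was absent from arterial cells: Tmsb10 still had a UMI in 64.7% of them and Car4 in 49.6%, against 91.2% and 93.0% of the other endothelial cells. Without the 1291 cells, a step chosen after their values were seen, 14 of the 15 differences were more than 1.5-fold larger, with Car4 at -3.23, Tmsb10 at -3.11 and Slc38a5 at -3.49 on the log2 scale.

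**Figure D2:**
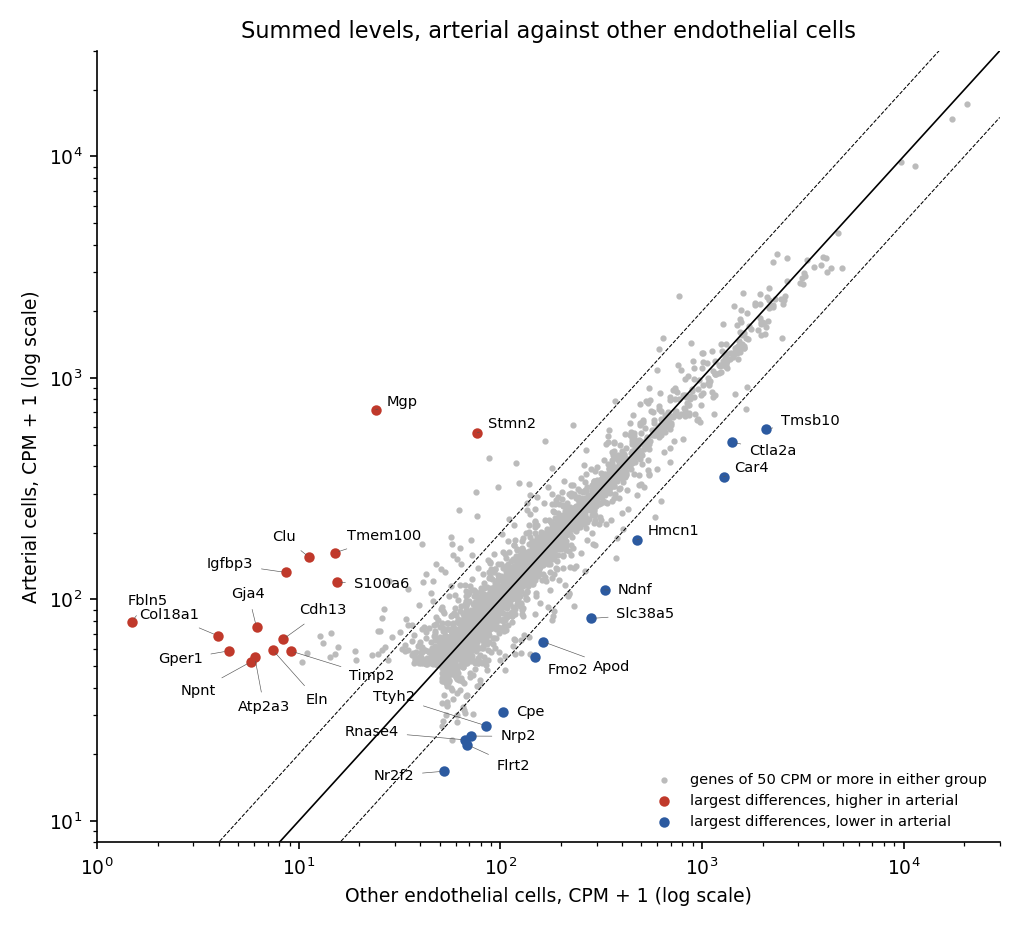
Summed levels of genes (CPM + 1, log scales) in arterial cells (vertical) against other endothelial cells (horizontal), rule genes left out, with the largest differences in each direction in colour and named; the solid line marks equal levels and the dashed lines 2-fold. The genes higher in arterial cells reach much larger differences (Fbln5, 5.74 on the log2 scale) than those lower in them (Car4, -1.84).

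Arterial cells were then compared with 2530 venous marker cells (3 or more of 6 venous rule genes, among them Slc38a5, Nr2f2, Lcn2, Lrg1 and Ackr1, median 10736 UMIs) and 12719 capillary marker cells (fewer than 3 of these and 3 or more of Mfsd2a, Rgcc, Spock2, Cxcl12, Hmcn1 and Tfrc, median 6140 UMIs), all endothelial with fewer than 3 arterial rule genes. Of the arterial cells 85.6% also had 3 or more of the capillary rule genes, as did 98.5% of the other endothelial cells. The capillary condition therefore set few cells apart, and capillary marker cells were nearly all endothelial cells outside the arterial and venous classes. Against venous marker cells 103 of 3690 genes (2.79%) were at least 2-fold higher and 76 (2.06%) lower. Against capillary marker cells 78 of 3618 (2.16%) were higher and 23 (0.636%) lower. The leading genes against venous marker cells were Fbln5 (6.00), Igfbp3 (5.19), Col18a1 (4.79), Tmem100 (4.67) and Mgp (4.58), and against capillary marker cells Fbln5 (5.73), Mgp (5.07), Col18a1 (4.04), Clu (3.80) and Igfbp3 (3.72), all as log2 differences.

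The genes lowest in arterial relative to venous marker cells included alarmins, a chemokine and a Wnt ligand. S100a9 and S100a8, alarmins of neutrophils, were at 0.642 and 0.354 CPM against 84.4 and 67.0, but only 0.474% and 0.395% of the venous marker cells had a UMI of them, so a few cells carried these levels. Cxcl10, an interferon-induced chemokine, was at 5.55 against 50.9 CPM (-2.99), the Wnt ligand Wnt5a at 18.1 against 117 (-2.63) and Flrt2, an adhesion and guidance protein, at 21.1 against 135 (-2.62). Relative to capillary marker cells the lowest were Car4 (-1.75), Ttyh2 (-1.66), Tmsb10 (-1.54), Cpe (-1.54) and Ctla2a (-1.47).

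The label was set beside a list of 28 arterial genes outside the rule, which is no independent evidence, since the list was chosen with earlier results of these data known. Of the 25 that reached 50 CPM, 15 were at least 2-fold higher in arterial than in other endothelial cells (2.12% over all genes tested), 0 were lower and 10 lay within 2-fold, with a median difference of 1.39 over the list. Against venous marker cells 18 were higher (2.79% over all genes tested, median 1.89) and against capillary marker cells 14 (2.16%, median 1.25). Efnb2, the arterial ephrin, was at 118 CPM in arterial, 47.6 in capillary and 17.3 in venous marker cells, Unc5b, a netrin receptor, at 137, 59.4 and 19.9, and Alpl, alkaline phosphatase, a histological stain for arterioles, at 434, 103 and 35.3. The endothelin gene Edn1 was at 519, 177 and 132 CPM, and the membrane protein gene Tm4sf1 at 2335, 828 and 555. For each of these 5 genes the level was highest in arterial and lowest in venous marker cells. Cxcr4 was low, at 3.21 against 1.07 CPM, and Nrp1, the neuropilin known from arteries, was the only list gene with a negative difference, at 169.5 against 229 CPM (-0.43).

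Of the 19 venous genes 11 reached 50 CPM, and 6 of these were at least 2-fold lower (1.05% over all genes tested) and 0 higher than in other endothelial cells (median -1.11). Against venous marker cells, with the venous rule genes left out, 7 of 10 were at least 2-fold lower (2.06% over all genes tested, median -2.29 over the 13 left). Ctsc, cathepsin C, was at 55.7 against 139 CPM, Icam1 at 55.8 against 117, and Ephb4, the venous partner of ephrin-B2, at 45.5 against 48.8 CPM. Vwf, von Willebrand factor, and Vcam1, an adhesion molecule for leukocytes, did not follow the list. Vcam1 was at 168 CPM in arterial cells, 28.6 in capillary and 403 in venous marker cells, and Vwf at 147, 63.5 and 296, so for both genes arterial cells lay between the others, 2.51 and 1.20 above capillary marker cells on the log2 scale. All 15 capillary genes reached 50 CPM, and 6 were at least 2-fold lower than in other endothelial cells and 0 higher (median -0.80). Mfsd2a, the lipid transporter that restrains transcytosis, was at 217 CPM in arterial and 220.2 in venous marker cells against 337 in capillary ones, whereas Cxcl12, a chemokine, was at 2674, 1435 and 3592. Both genes helped to choose the capillary marker cells, so their higher levels there are a description only.

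**Figure D3:**
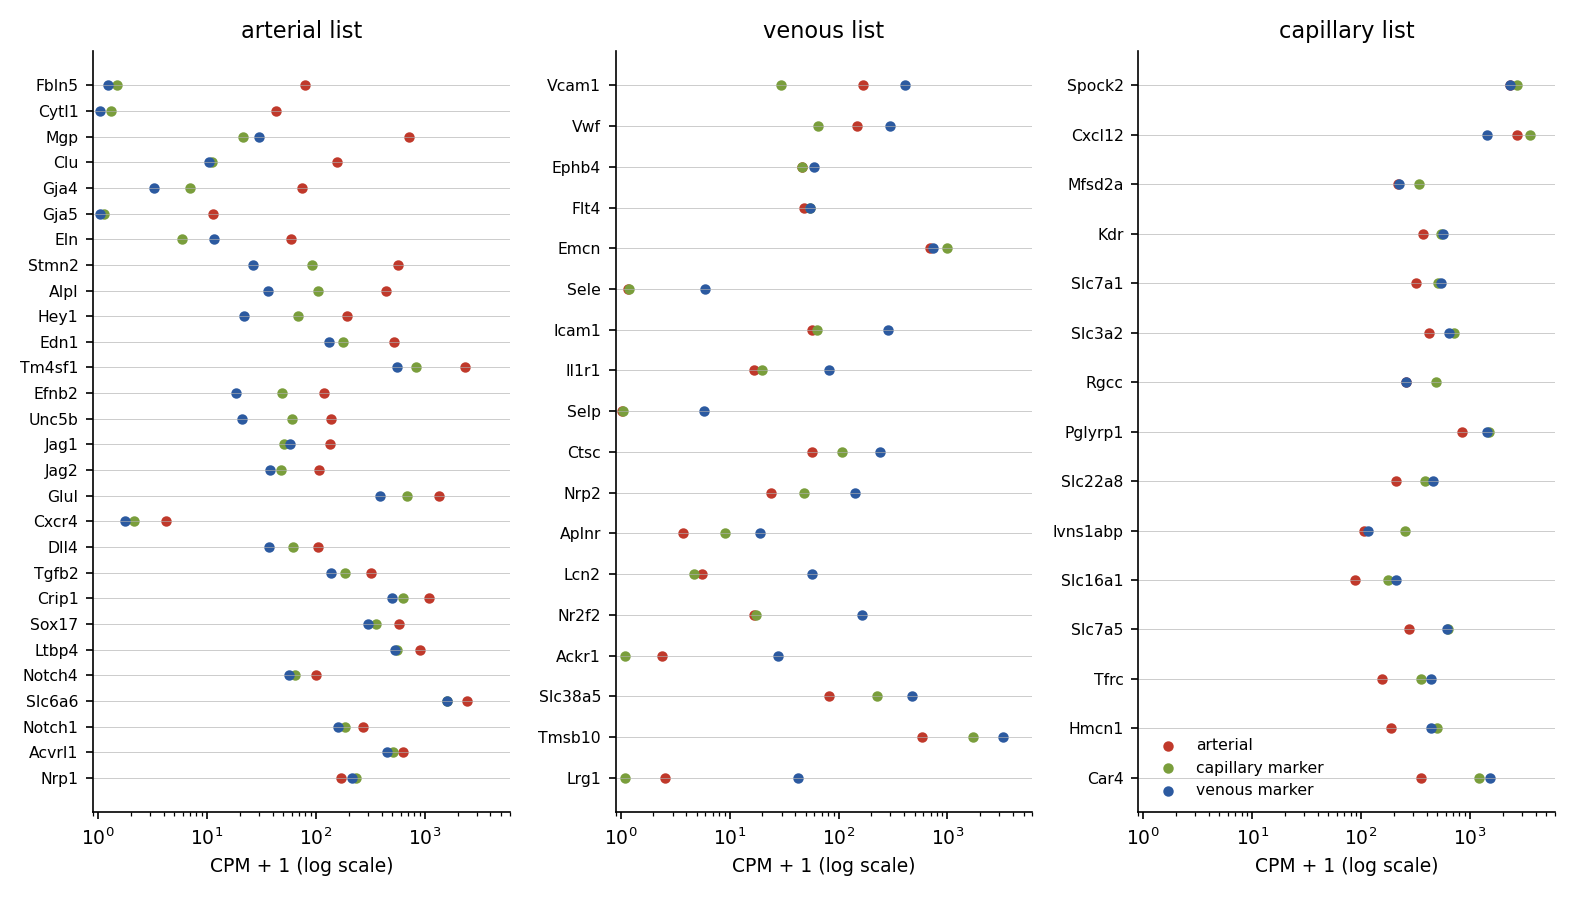
Summed levels (CPM + 1, log scale) of genes of the arterial, venous and capillary lists in arterial (red), capillary marker (green) and venous marker cells (blue). Red points lie furthest right for all but Nrp1 of the arterial list, while Vcam1 and Vwf of the venous list have arterial levels between capillary and venous ones. The venous and capillary lists include genes that chose the marker cells.

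Of the 19 Notch pathway genes 8 reached 50 CPM, with Jag1, Jag2 and Hey1 at least 2-fold higher, against 2.12% of all genes tested, and 0 lower (median 0.09 over the list, against 0.03 over all genes tested). The ligand genes Jag1, Jag2 and Dll4 were at 132 against 51.9 CPM, 106 against 44.2 and 103 against 54.5, the last just inside 2-fold at 0.90, and the ligand gene Dll1 was at 7.85 against 7.63. The receptors Notch1 and Notch4 were at 268 against 179 CPM and 98.7 against 60.9, and Notch2 and Notch3 stayed under 9 CPM in both groups. Among the targets, Hey1 was at 190.2 against 56.1 CPM (1.74) while Hes1 was at 654 against 951 (-0.54). Hey2 was at 3.28 against 1.01 CPM, Nrarp, a feedback inhibitor, at 38.0 against 19.3, and Rbpj at 42.8 against 42.0. The fringe gene Mfng, whose product modifies Notch receptors, was at 72.1 against 82.5 CPM.

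Transcription factors of the vessel differed less. Of 18 factors 16 reached 50 CPM, with 0 at least 2-fold higher and only Nr2f2 at least 2-fold lower, against 2.12% and 1.05% of all genes tested. Of the 2 below this limit, which were not counted as called, 1 was past 2-fold lower and 1 within it. Sox17 was at 579 against 346 CPM (0.74) and Sox18 at 763 against 494 (0.63), while Sox7, of the same family, was at 82.1 against 90.9. The ETS genes Erg and Ets1 were at 180.4 against 149 and 285 against 367 CPM, and Mecom, another arterial regulator, at 292 against 222. The flow-responsive factors Klf2 and Klf4 were at 3500.3 against 3984 and 1290.1 against 1372 CPM, both within 2-fold.

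Transporters of the blood-brain barrier were mixed. Of 19 transporters 17 reached 50 CPM, with 3 at least 2-fold lower, against 1.05% of all genes tested, and 0 higher (median -0.47). The large neutral amino acid carrier Slc7a5 was at 276 against 628 CPM, the monocarboxylate carrier Slc16a1 at 87.2 against 183 and the transferrin receptor Tfrc at 153 against 375. By contrast the glucose transporter Slc2a1 was at 1739 against 1489 CPM, the efflux pump Abcb1a at 1189 against 1329.6, and the taurine carrier Slc6a6 at 2413 against 1596. Of 15 junction genes 11 reached 50 CPM and 0 passed 2-fold, with occludin (Ocln) at 231 against 265 CPM and Tjp1 at 446 against 502. Of 7 genes of caveolae and fenestrae 6 reached 50 CPM and 0 passed 2-fold. Cav1 was at 443 against 452 CPM, Ehd2, which steadies the neck of caveolae, at 215 against 115 (0.89), and Plvap, of fenestrated vessels, at 0.509 against 0.156 CPM.

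The elastic fibre and matrix list of 28 genes had 14 at 50 CPM, with Fbln5, Mgp, Col18a1 and Eln at least 2-fold higher, against 2.12% of all genes tested, and 0 lower (median 0.20). Of the 14 below this limit, which were not counted as called, 3 were past 2-fold higher, 0 past 2-fold lower and 11 within it. Fbn1, fibrillin 1, and Lox, the oxidase that crosslinks elastin, were below 50 CPM and at 10.1 against 0.213 and 2.77 against 0.147 CPM. Ltbp4, which fibulin-5 needs for elastic fibre assembly, was at 904 against 545 CPM (0.73), and the collagen IV gene Col4a1 was at 412 against 358. Of 8 connexin and pannexin genes 3 reached 50 CPM and Gja4 passed 2-fold. Gja5, connexin 40, was low in both groups, at 10.3 CPM (9.35 to 11.2) with a UMI in 8.14% of cells against 0.106 CPM (0.0566 to 0.182) and 0.0845%.

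Of 20 vasoactive and flow genes 8 reached 50 CPM, with Edn1 at least 2-fold higher, against 2.12% of all genes tested, and 0 lower (median 0.16). Of the 12 below this limit, which were not counted as called, 5 were past 2-fold higher, 0 past 2-fold lower and 7 within it. Nos3, endothelial nitric oxide synthase, was at 198 against 175 CPM. The 5 were as follows. Ace, angiotensin-converting enzyme, was at 41.2 against 9.01 CPM, Ptgis, prostacyclin synthase, at 41.4 against 15.6, the calcium channel gene Trpv4 at 42.4 against 10.6 and the potassium channel genes Kcnj2 and Kcnn4 at 29.2 against 13.5 and 7.35 against 0.0982. Kcnn4 encodes a channel of endothelium-dependent hyperpolarisation.

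Most genes of signals between endothelium and vessel wall lay within 2-fold. Over all genes tested, 2.12% were at least 2-fold higher and 1.05% at least 2-fold lower. Pdgfa was at 121 against 27.0 CPM (2.12) and was the 1 of 9 genes of the PDGF and mural list (7 at 50 CPM) past 2-fold, whereas Pdgfb, the pericyte attractant, was at 307 against 247. Of 19 TGF-beta and BMP genes 13 reached 50 CPM, with Smad6, a feedback inhibitor of BMP signals, at 81.5 against 24.8 CPM (1.68) and the receptor genes Eng and Acvrl1 at 852 against 616 and 623 against 497. Of 18 guidance genes 10 reached 50 CPM and Efnb2 and Unc5b passed 2-fold, while Ntn4 was at 47.1 against 15.6 and Sema3f at 12.8 against 0.606 CPM. Ntn4 and Sema3f were the 2 past 2-fold among the 8 below 50 CPM, and 6 lay within it. Of 14 VEGF and angiopoietin genes 6 reached 50 CPM and Nrp2 was lower. Kdr, the main VEGF receptor, was at 367 against 547 CPM and Vegfa at 6.95 against 1.45. Of the 8 genes of this list below 50 CPM, 2 were past 2-fold higher, 1 past 2-fold lower and 5 within it. Of 13 Wnt genes 11 reached 50 CPM and 0 passed 2-fold (Axin2 at 117 against 121 CPM). All 13 immediate early genes, which dissociation is known to induce, lay within 2-fold (median -0.25), with Fos at 3392 against 3312 CPM and Jun at 3139.5 against 4929.

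Within the members the levels followed the number of rule genes. From the cells with 3 to those with all 6, Mgp was at 109, 308, 693 and 1553 CPM, Fbln5 at 7.99, 35.5, 62.4 and 182 and Gja5 at 1.12, 5.64, 8.39 and 22.9. Eln was at 15.9, 31.8, 60.2 and 112 CPM, Jag1 at 71.8, 108, 134 and 200.4 and Hey1, with a shallower course, at 147, 176, 204 and 224. Among the cells outside the rule, those with 0, 1 and 2 genes, Mgp was nearly flat at 23.6, 19.3 and 29.6 CPM, while Alpl was already at 53.6, 106 and 186. Capillary and venous genes took the other course: Car4 was at 483, 352, 325 and 287 CPM from 3 to 6 genes, Rgcc at 362, 291, 234 and 160.2, and Slc38a5 at 113, 77.5, 73.1 and 64.2. Vcam1 turned, from 118 CPM in the cells with 0 genes to 63.6 in those with 3 and 285 in those with all 6. Depth went along with this scale, and its part in these levels was not tested.

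**Figure D4:**
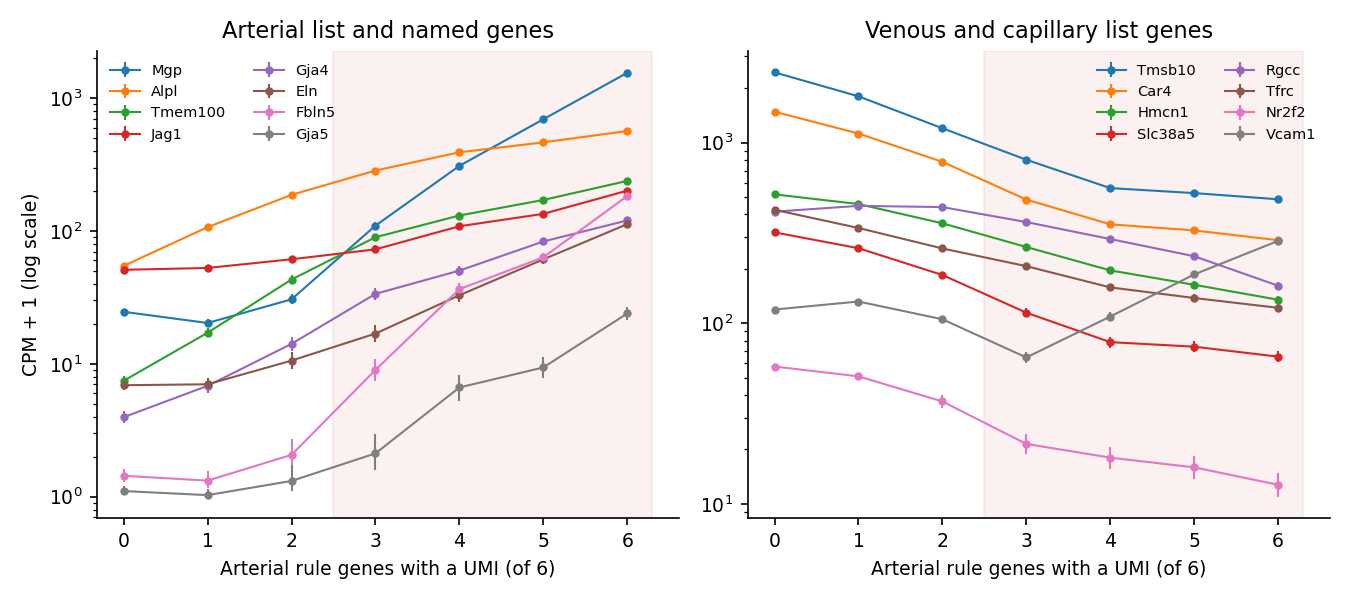
Summed levels (CPM + 1, log scale, with exact 95% Poisson intervals) by the number of arterial rule genes with a UMI, for arterial genes (left) and venous and capillary genes (right); the shaded classes are the members. Mgp and Fbln5 climb steeply only inside the shaded classes, and Vcam1 is lowest in the cells with 3 genes.

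When all endothelial cells were clustered without the rule genes (9 clusters), 54.7% of the arterial cells fell in a cluster of 3516 cells led by Igfbp3, Edn3 and Tmem100, of which 67.0% were members, and 20.5% in a cluster of 948 cells led by Fbln5, Pi16 and Cytl1, of which 93.1% were members. A further 19.5% lay in the largest cluster, of 5363 cells led by immediate early genes such as Egr1, where 15.6% were members. The other clusters each held under 3% of the arterial cells, with 2.66% members in the cluster led by Cyp2e1, Icam1 and Wnt5a and 9.01% of the 111 cells in that led by Lrg1, Ackr1 and Selp. Members made up 1.16% of the 5088 cells in a cluster led by S100a9 and S100a8, 35.1% of 74 cells led by haemoglobin genes, 24.3% of 37 cells led by astrocyte genes such as Slc1a2 and Aldoc, and 1 of 9 cells led by Dcn and Col1a1. S100a9 and S100a8 had a UMI in only 0.377% and 0.318% of the other endothelial cells, so few of the 5088 cells carried them. The next leading genes of that cluster were mt-Ts2, Ivns1abp and Cpe.

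The arterial cells alone, again without the rule genes, split into 7 clusters, which are described by their leading genes and were given no cell type name. Cluster 3 (818 cells, 19.0%) was led by Cytl1, Igfbp4, Mgp and Fbln5, and 52.9% of its cells had all 6 rule genes at a median of 7401 UMIs, below that of all arterial cells. Its levels were 3060.4 CPM for Mgp, 316 for Fbln5, 181 for Eln, 40.1 for Gja5, 31.7 for Kcnn4 and 529 for Vcam1, and the level of Cxcl12 was 970.3 CPM. Cluster 0 (500 cells, 11.6%) was led by Fabp4, a fatty acid carrier, and by Ssu2, S100a4 and Pi16. It had Fbln5 at 205 CPM and Gja4 at 108, but Gja5 at 2.73 and Cytl1 at 28.7, and high Fos (5520.5 CPM) and Egr1 (1766). Clusters 1 (915 cells, 21.3%) and 4 (745 cells, 17.3%) had the lowest levels among the 5 larger clusters of Slc38a5 (10.1 and 20.4 CPM), of Tmsb10 (112 and 123) and of Car4 (79.4 and 94.9), with Fbln5 at 4.55 and 2.66. They were set apart by Fos, at 4330.3 CPM in cluster 1 and 709 in cluster 4, and cluster 4 was led by Rn18s-rs5 and Gm42418, which overlap ribosomal RNA.

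Cluster 2, with 1291 cells (30.0%) the largest, was led by Slc38a5 (162 CPM), Car4 (672) and Tmsb10 (1078), genes of capillaries and veins, beside arterial levels of Bmx (125 CPM), Gkn3 (304) and Gja4 (31.7) that were lower than in the clusters above. Its median depth was 13498 UMIs, Scrublet marked 29.0% of its cells, and 18.3% had UMIs of 3 or more venous rule genes. Over all arterial cells 277 (6.44%, 5.72 to 7.21) had 3 or more venous rule genes, at a median of 18006 UMIs, and 1922 (44.7%) had none, at 6895 UMIs. A further 24 cells were led by haemoglobin genes and 9 by astrocyte genes. Without cluster 2, a step chosen after its values were seen, 3011 arterial cells remained, 124 genes were at least 2-fold higher and 86 lower than in other endothelial cells, and the medians were 1.59 for the arterial, -1.70 for the venous and -1.26 for the capillary list. The part of doublets and of depth in this cluster was not tested.

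**Figure D5:**
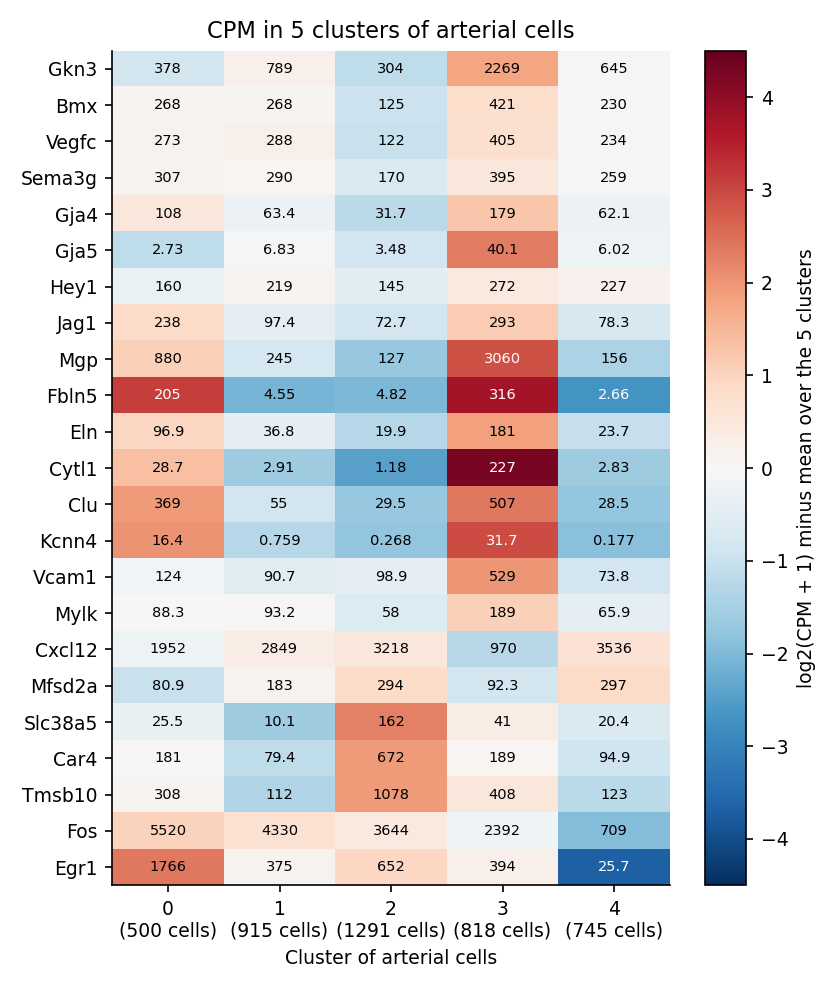
Levels in CPM (numbers) of 23 genes in the 5 clusters of arterial cells with 500 cells or more, coloured by log2(CPM + 1) minus the mean of the 5 clusters. Cluster 3 has the highest Mgp, Fbln5, Cytl1 and Vcam1, and cluster 2 the highest Slc38a5, Car4 and Tmsb10.

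Markers of neighbouring cell types were summed by list. Of the 9 smooth muscle genes, the summed level was 134 CPM in arterial and 76.2 in other endothelial cells, and 14.4% against 4.49% of cells had a UMI of 2 or more of them. Mylk, myosin light chain kinase, gave most of it at 89.8 against 25.6 CPM, while Acta2 and Tagln were at 9.09 against 11.6 and 8.52 against 10.7, Myh11 was at 5.11 against 3.70 and Cnn1 had 0 UMIs in arterial cells. The 9 pericyte genes summed to 337 against 417 CPM, nearly all Rgs5 (297 against 371). The neuronal list summed to 568 against 78.4 CPM, of which Stmn2 gave 566, and Snap25 and Syt1 were at 0.929 and 0.0221 CPM in arterial cells. The sums were 8.92 against 29.6 CPM for fibroblast, 120 against 109 for astrocyte (2 or more genes in 8.32% against 5.54% of cells), 26.0 against 28.4 for oligodendrocyte, 40.8 against 34.9 for microglia and 29.9 against 32.1 for ependymal genes. Only 3 of the 9 ependymal and 6 of the 9 pericyte genes lay outside the rule, which limited the others in every endothelial cell. The choice of cells thus held down the ependymal and pericyte sums in part. The blood list summed to 2067 against 1371 CPM, all from haemoglobin genes, with Ptprc, which encodes the CD45 excluded by the sort, at 0 UMIs in arterial cells. A few cells carried these sums. The 24 arterial cells of the cluster led by haemoglobin genes had Hbb-bs at 154930 CPM, against 11.3 in the remaining arterial cells. Among all endothelial cells, the 74 of the haemoglobin cluster had it at 150978 CPM, against 14.5 in the rest. Arterial cells were the deeper group, and the part of depth in these shares was not tested.

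The same rule was applied to the traced library, which was mostly made of other cells. It held 49 endothelial cells by the rule (1.02% of 4825, 0.752 to 1.34), and 23 of these were arterial (46.9%, 32.5 to 61.7), 14 of them with all 6 rule genes and a median depth of 9394 UMIs over the 23. In these 23 cells Gkn3 was at 1286 CPM, Bmx at 463 and Vegfc at 403, against 0, 12.9 and 0 in the 26 other traced endothelial cells, where the interval of a count of 0 reached 15.8 CPM. Genes outside the rule that stood apart in the non-traced library had UMIs in traced arterial cells too, with Mgp at 1212 CPM, Fbln5 at 203, Gja4 at 190.5 and Gja5 at 34.6 (8 UMIs in 3 cells) against 0 UMIs of each in the 26 others. Stmn2 was at 844 against 42.9 CPM, Alpl at 524 against 51.5 and Igfbp3 at 307 against 4.29. In the other direction Car4 was at 13.0 CPM (3 UMIs, interval 2.68 to 38.0) against 1366, Tmsb10 at 164.5 against 2311 and Ctla2a at 121 against 1293. S100a6 was at 86.6 against 90.2 CPM, from 20 UMIs in 4 traced arterial cells and 21 UMIs in 1 other traced endothelial cell. The tdTomato-WPRE row of the reporter was at 429 CPM in traced arterial cells (348 to 522), 275 in the other traced endothelial cells and 70.6 in non-traced arterial cells, where ependymal marker cells had 74.6. Clec9a had 0 UMIs in the 23 traced arterial cells and 2 UMIs in the 4302 non-traced ones.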

How the data were processed

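Gene expression was measured by droplet-based 3′ single-cell RNA sequencing in 2 libraries. The deposited values were counts of UMIs per gene and cell, made by the authors with Cell Ranger (3.0.2, with STAR 2.5.1b) on the mm10 mouse reference with reporter sequences added, and not normalised. The submitters' notes also name R 3.6.0 and Seurat 3. Genes with near-identical copies and overlapping genes may have been split or dropped in counting. All 25411 and 4825 deposited barcodes were used, with no further filter on cells, in Python 3.11.15 (numpy 2.4.6, scipy 1.17.1, pandas 2.3.3, scanpy 1.11.5, igraph 0.11.9, matplotlib 3.10.9). The non-traced library held 233318692 UMIs (median 7218 per cell) and the traced library 46530507 (median 8566).

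Cells were classed by UMIs of the rule genes, counts were summed per class and scaled to CPM, and differences were taken on the log2(CPM + 1) scale, which understates the change of genes with low counts. A gene was called higher or lower past 2-fold if it reached 50 CPM on 1 side or both, with the rule genes left out. With 1 library per group there was no test, and cells were not used as replicates. Thinning to 1000 UMIs per cell used a fixed seed, and no cell was shallower. Clusters were made by the Leiden method (2000 variable genes, 20 components, 15 neighbours, resolution 0.5). Scrublet marked 1787 non-traced cells (7.03%), which were kept in the main values. Levels of different genes were not compared with each other. The step that sums counts was checked on simulated data.

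Genes were named by rule: the 6 arterial rule genes, the 15 largest differences each way against other endothelial cells and the 5 largest against venous and capillary marker cells, and members of the gene lists. Of the genes that this rule names and those that mark venous cells, 1 each is not reported here by name. Genes that lead a cluster or carry a summed list were named after their values were seen. The members, the rule and the lists were chosen with earlier results of these data known, so no list is independent evidence. Alternatives covered the threshold, depth, doublets, scaling, pseudocount, low value filter and compared cells.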

Additional observations from a re-analysis of the deposited data

Results flagged for a closer look

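In data outside the main comparison, 23 of the 49 traced cells that passed the endothelial conditions also passed the arterial rule (46.9%, interval 32.5 to 61.7), against 21.8% of the 19691 non-traced endothelial cells (21.3 to 22.4). This was noted because traced cells were in none of the comparisons between groups of non-traced cells. The rule genes chose the 23 cells, so their number is a description. The median depth was 9394 UMIs in the 23 cells and 8738.5 in the non-traced arterial cells, and 0 of the 23 barcodes recurred among the non-traced arterial cells. Other endothelial cells had a median of 7777 UMIs in the traced and 6425 in the non-traced library. The rule picked deeper cells more often, and the part of depth in these shares was not tested. Each share came from 1 library, so the difference has no replicate check and was not tested.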

How the results depend on the processing

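All 30 genes named for the largest differences against other endothelial cells kept their direction under 12 alternatives (360 values), and 359 stayed past 2-fold; Apod, at -0.81 with a pseudocount of 10 CPM, was the exception. Their sizes moved more: 14 of the 15 lower differences moved by over 1.5-fold without the cluster led by Slc38a5, Car4 and Tmsb10, as did 4 of the 15 higher ones, and 12 of the higher ones did so with a pseudocount of 10 CPM and 7 against cells with no rule gene. At 5000 UMIs 3 of the lower differences moved as far, in cells of 5000 to 15000 UMIs 1 and without cells rich in venous genes 2, and 0 differences did under the other 6 alternatives. Over the alternatives Fbln5 lay between 3.07 and 6.47, Col18a1 between 2.58 and 5.10, Mgp between 4.46 and 5.56, Car4 between -3.23 and -1.53, Tmsb10 between -3.11 and -1.57 and Slc38a5 between -3.49 and -1.45. The causes of the changes below were not tested, beyond what each alternative's construction shows. The arterial share of 21.8% became 30.3% with 2 or more rule genes, 16.2% with 4 or more, 18.1% of 17013 cells thinned to 5000 UMIs, 20.6% without Scrublet calls, 20.4% without arterial cells that had 3 or more venous rule genes, and 15.3% without the cluster led by Slc38a5, Car4 and Tmsb10 (chosen after seeing the data). Against other endothelial cells, the 77 higher and 38 lower genes became 197 and 90 at 10 CPM, 378 and 136 without a filter and 124 and 86 without that cluster, and the lower count became 23 with 2 or more rule genes and 59 at 5000 UMIs. Against venous marker cells, 103 and 76 became 239 and 172 at 10 CPM and 455 and 290 without a filter, and the lower count 127 without that cluster. Against capillary marker cells, 78 and 23 became 201 and 59 at 10 CPM, 396 and 79 without a filter and 125 and 67 without that cluster, and the lower count 15 with 2 or more rule genes, 50 at 5000 UMIs, 42 in cells of 5000 to 15000 UMIs, 35 without Scrublet calls, 35 without cells rich in venous genes and 40 with per-cell means. The arterial list's median of 1.39 became 1.17 with a pseudocount of 10 CPM, 1.73 against cells with no rule gene and 1.59 without that cluster. The venous and capillary medians of -1.11 and -0.80 became -0.93 and -0.65 with 2 or more rule genes, -1.39 and -1.09 at 5000 UMIs, -1.41 and -0.97 in cells of 5000 to 15000 UMIs, -1.26 and -0.91 without Scrublet calls, -1.34 and -0.85 without cells that had an ependymal or mural rule gene, -1.63 and -0.87 without cells rich in venous genes and -1.70 and -1.26 without that cluster. The venous median alone became -0.69 with a pseudocount of 10 CPM, and the capillary median -0.92 with 4 or more rule genes, -0.96 with per-cell means, -0.83 with median-of-ratios scaling and -0.86 against cells with no rule gene. No paired analysis was possible because each group was 1 library.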
